A study of Mus musculus with 3 samples.

Results

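Type I interferon-response macrophages were the cells with the highest interferon score in each of 3 libraries of tumour-associated macrophages, and they numbered 358 of 9749 kept cells. The score of a cell was the mean of ln(1 + UMIs per 10000) over 9 genes: Ifit1, Ifit2, Ifit3, Isg15, Rsad2, Oasl1, Usp18, Irf7 and Cmpk2. A unique molecular identifier (UMI) marks 1 captured transcript. In each library the top 4% by score were taken, and cells with a UMI of Cxcl9, a chemokine gene that interferon gamma induces strongly, were left out. This left 25, 78 and 255 cells in mice 1, 2 and 3. They were set against the remaining 96% of each library, which held 636, 2024 and 6699 cells. Between them stood 2, 6 and 24 cells of the top 4% that did have a Cxcl9 UMI.

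The series held 1 group and no treatment. Each library came from 1 mammary adenocarcinoma of 750 mm3 from 1 mouse of the strain FVB/N-Tg(MMTVPyVT)634Mul/J, in which the mouse mammary tumour virus promoter drives the polyoma middle T oncogene in mammary epithelium. The sort had kept cells positive for CD45, CD11b and F4/80 and negative for Ly6G, and a droplet kit read the 3' ends of their transcripts. The libraries held between 12454677 and 86178419 UMIs in 1074 to 7429 barcodes, and filters on genes and mitochondrial UMIs removed 1224 of 10973 barcodes. Because every cell belonged to the same condition, the comparisons were made between cells of the same mouse, with the mouse as the replicate. Mice 2 and 3 shared 7 cell barcodes, of which 1 belonged to an interferon-response cell, and the other pairs of libraries shared 0.

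Type I interferons, interferon beta and the interferon alphas, signal through a receptor made of IFNAR1 and IFNAR2. The kinases JAK1 and TYK2 then activate STAT proteins, of which STAT2 joins IRF9 in a complex that binds a DNA element called the interferon-stimulated response element (ISRE) in front of antiviral genes. Interferon gamma signals through another receptor and the gamma-activated site (GAS), and many genes answer to both. Macrophages can both make type I interferon when nucleic acid sensors are engaged and respond to it, and in tumours the response is known for its antigen presentation genes and chemokines.

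The genes of the score chose the cells, so their levels describe the choice and carry no test. Isg15, a ubiquitin-like protein that is attached to other proteins, was their most abundant transcript at 835, 759 and 1204 CPM in the interferon-response cells of mice 1, 2 and 3, against 67.8, 87.7 and 51.1 CPM in the lower 96%. Rsad2 encodes viperin, an enzyme that makes a chain-terminating nucleotide, and stood at 243, 503 and 744 CPM in the interferon-response cells of mice 1, 2 and 3, against 6.46, 18.7 and 6.05 CPM in the lower 96%. Irf7, the transcription factor that amplifies interferon gene expression, was at 317, 277 and 457 CPM in the interferon-response cells of mice 1, 2 and 3, against 38.2, 31.9 and 25.8 CPM in the lower 96%. Levels here are CPM, the UMIs of a gene per 1000000 UMIs summed over the cells of 1 mouse, and in all 3 genes every mouse had its interferon-response cells above its lower 96%. Cmpk2, a mitochondrial nucleotide kinase next to Rsad2 on chromosome 12, had the lowest mean of the 9 over the mice, at 34.4, 25.2 and 72.6 CPM in the interferon-response cells of mice 1, 2 and 3, against 0.842, 0.804 and 0.306 CPM in the lower 96%. Together the 9 genes took 0.189, 0.233 and 0.328% of UMIs in the interferon-response cells, against 0.0141, 0.0208 and 0.0103% in the lower 96%.

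When a gene was left out and cells were chosen on the other 8, the left-out gene was still higher in the chosen cells of all 3 mice for each of the 9 genes. Isg15 lost most in mouse 1 and read 479, 700.0 and 1045 CPM in cells so chosen, against 81.4, 91.5 and 56.3 CPM in their lower 96%. Rsad2 read 208, 401 and 739.5 CPM in cells so chosen, against 7.68, 24.7 and 7.65 CPM in their lower 96%. The plot of the 9 genes shows both choices side by side.

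**Figure D1:**
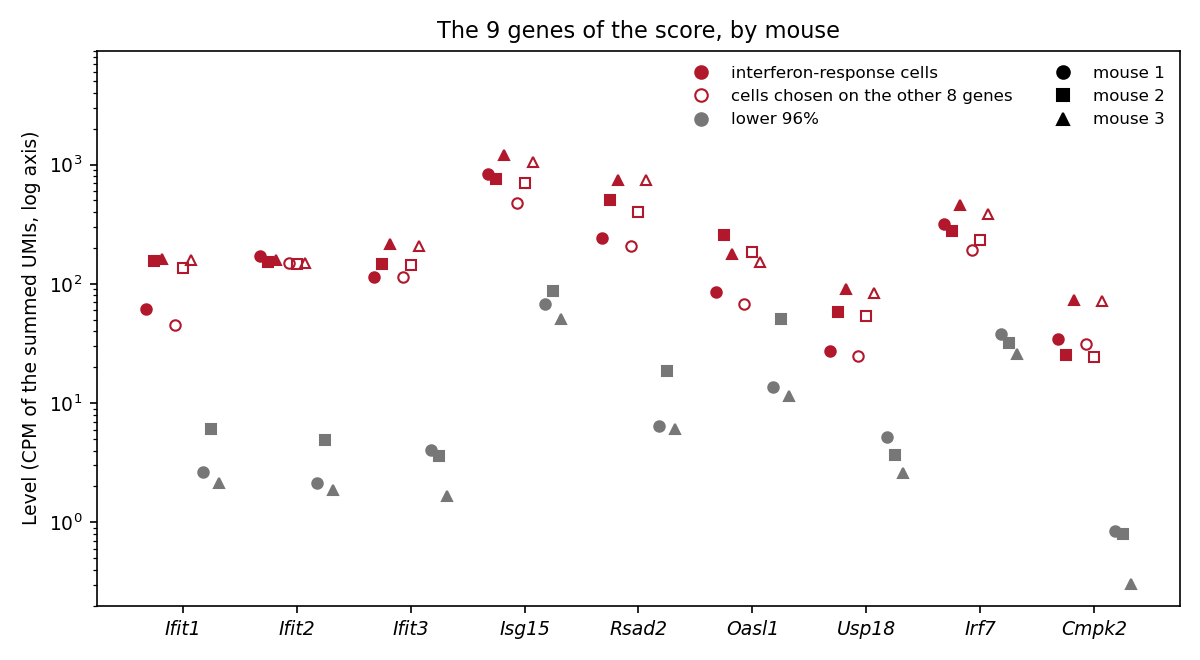
Level of each gene of the score in CPM of summed UMIs (log axis), 1 symbol shape per mouse. Filled red symbols are interferon-response cells, open red symbols are cells chosen on the other 8 genes, and grey symbols are the lower 96%. For Isg15 the filled red symbols lie at 759 to 1204 and the grey ones at 51.1 to 87.7.

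The limit of the top 4% did not fall at a gap in the score. Whether a separate group of cells lay higher up the score was not tested. The last cell inside the top 4% had a score of 0.386, 0.586 and 0.492 in mice 1, 2 and 3, and the first outside had 0.384, 0.583 and 0.491. Of the 358 cells, 99 lay within 0.1 above their limit, and 148 cells of the lower 96% lay within 0.1 below it. The median score was 0.479, 0.788 and 0.755 in the interferon-response cells, against 0.0505, 0.0459 and 0 in the lower 96%. Among the interferon-response cells, those of mouse 1 were the fewest and had the lowest median score. At least 5 of the 9 genes were detected in 228 of the 358 cells and all 9 in 39, while 11 cells were chosen on 3 or fewer UMIs of these genes.

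Interferon-response cells were slightly deeper than the others. Their median depth was 17155, 15137 and 10547 UMIs in mice 1, 2 and 3, against 14971, 13551.5 and 9260 UMIs in the lower 96%. The median share of mitochondrial UMIs was 4.34, 3.98 and 3.92% in the interferon-response cells, against 4.68, 4.67 and 4.66% in the lower 96%. When every cell was thinned to 2000 UMIs and the choice was made again, 245 of the 358 newly chosen cells were among those chosen on all UMIs.

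**Figure D2:**
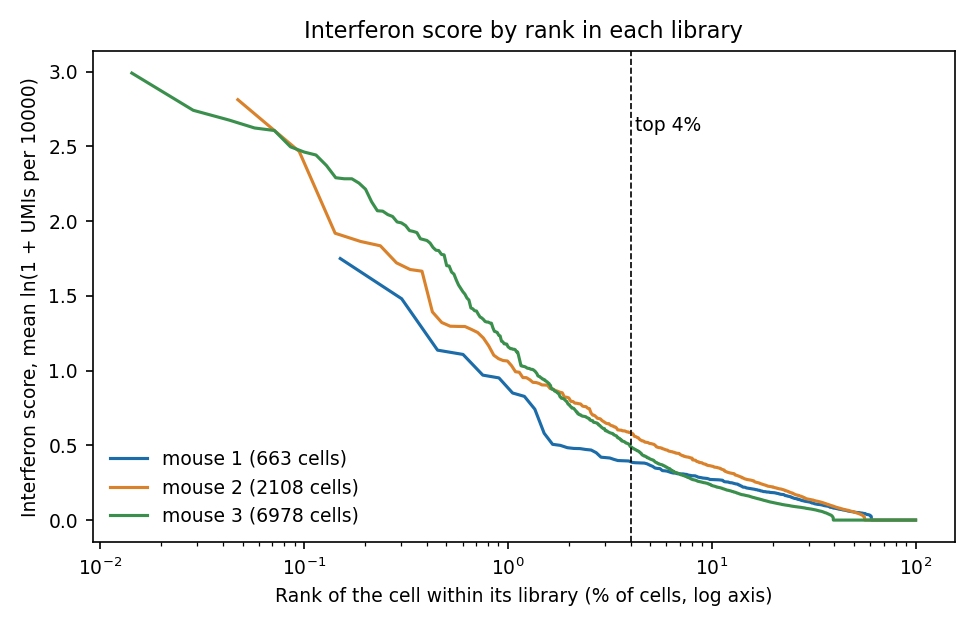
Interferon score (mean ln(1 + UMIs per 10000) over 9 genes) against the rank of a cell within its library in percent, on a log axis, with 1 line per mouse. The dashed line marks the top 4%, where scores fell smoothly through 0.386, 0.586 and 0.492 in mice 1, 2 and 3. The lines include high scorers with a Cxcl9 UMI.

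The cells fitted their label as macrophages. The 12 macrophage lineage markers summed to 29071, 28881 and 32499.9 CPM in the interferon-response cells, against 29439, 29275 and 34929.8 CPM in the lower 96%. Adgre1, which encodes the F4/80 of the sort, read 298, 247 and 266 CPM in the interferon-response cells, against 340.1, 272 and 289 CPM in the lower 96%, and of the 12 markers only Fcgr1 was called different. The sums of the other lineages' markers are given below.

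Several of the chosen genes carry the letters of an ISRE in front of their start, and the stretches are printed because the same letters recur among the genes described next. The core searched was GAAANNGAAA on either strand, in RefSeq promoter windows of GRCm38.p6 that run from 250 bases before to 50 bases after a gene's start. Each stretch is written along its gene's strand with the core, or its reverse complement TTTCNNTTTC, in capitals. The 3 cores of Isg15 overlap. The stretches of Ifit1 (chr19:34640770-34640828, plus strand), Ifit3 (chr19:34583358-34583431, plus strand), Isg15 (chr4:156200860-156200911, minus strand) and Rsad2 (chr12:26456548-26456587, minus strand) come from the score. Those of Stat2 (chr10:128270261-128270300, plus strand), Oas3 (chr5:120777710-120777749, minus strand) and Cxcl10 (chr5:92349078-92349117, minus strand) lie outside it.
Ifit1: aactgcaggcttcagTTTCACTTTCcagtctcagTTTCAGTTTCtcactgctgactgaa
Ifit3: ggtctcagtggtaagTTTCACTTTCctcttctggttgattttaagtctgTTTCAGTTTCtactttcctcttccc
Isg15: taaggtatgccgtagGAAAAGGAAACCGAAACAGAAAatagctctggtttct
Rsad2: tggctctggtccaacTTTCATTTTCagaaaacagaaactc
Stat2: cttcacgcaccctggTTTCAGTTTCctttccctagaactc
Oas3: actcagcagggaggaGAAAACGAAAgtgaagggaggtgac
Cxcl10: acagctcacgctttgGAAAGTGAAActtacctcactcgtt

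Outside the score, 354 of 10638 genes tested differed between interferon-response cells and the lower 96%, 312 higher and 42 lower, which is 3.33% of the genes, 2.93% higher and 0.395% lower. The test was edgeR's quasi-likelihood F test on UMIs summed per mouse, with the mouse as a block and Benjamini-Hochberg adjustment over all genes tested, at a threshold of 0.05. The median log2 fold change of all genes tested was -0.01. These genes were read in the same cells that were ranked by the score, so the test asks whether a gene moved with the score to a like extent in 3 mice. Of the 312 higher genes, 131 belonged to the gene lists used here, and 6 of the 42 lower genes did. The lists cover interferon, immune, metabolic and cell state genes and the markers of cell types. Calls depended on which mice were in the fit: without mouse 1, 2 or 3 there were 462, 186 and 230 higher genes and 116, 6 and 35 lower genes. The higher genes were 3.77, 1.74 and 2.17% of those tested in these fits. Each of these fits held 2 mice, so its p-values lean on variance shared across genes and measure agreement between mice poorly. With cells thinned to 2000 UMIs, 141 genes were called higher and 5 lower among 6590 tested. The groups of a gene are said not to overlap when the interferon-response cells of all 3 mice lie above, or all below, the lower 96% of all 3 mice, which held upwards for 4.91% and downwards for 6.78% of the 10638 genes.

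The ISRE core lay in 54 of the 324 windows of the higher genes (16.7%), in 1 of the 37 windows of the lower genes (2.70%) and in 353 of the 10610 windows of all genes tested (3.33%). Windows were found for 247 of the 312 higher genes. The GAS core TTCNNNGAA, searched in the same windows, lay in 8.64% of those of the higher genes, 8.11% of those of the lower genes and 6.84% of those of all genes tested. Over all promoter windows of the table the shares were 3.44% for the ISRE core and 8.30% for the GAS core. Within the score the windows of Ifit2, Oasl1, Irf7 and Cmpk2 held no ISRE core, and Usp18 had no entry in the table, nor did Mx1 and Zbp1 outside it. Outside the score the windows of Tnfsf10, Ifnb1, Ifi44 and Wfdc18 held none either, and that of Ddx58 held 1.

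The transcription factors Stat2 and Irf9, which act together at the ISRE, rose, and the receptors and kinases of the pathway were not called. Stat2 (chr10:128270559-128292849) read 50.5, 40.9 and 40.6 CPM in the interferon-response cells of mice 1, 2 and 3, against 14.7, 11.4 and 8.56 CPM in the lower 96%, and the groups did not overlap (log2 fold change 2.06 ± 0.16, adjusted p = 1.24e-09). Irf9 read 41.3, 56.0 and 48.9 CPM in the interferon-response cells, against 33.6, 31.9 and 20.8 CPM in the lower 96%, a smaller difference that had the same sign in 3 of 3 mice (log2 fold change 0.96 ± 0.15, adjusted p = 2.08e-04). Ifnar1, a receptor chain, read 211, 182 and 152 CPM in the interferon-response cells, against 191, 180.2 and 155 CPM in the lower 96% (log2 fold change 0.06 ± 0.10, adjusted p = 0.958), and Ifnar2 had a log2 fold change of -0.01 ± 0.10 with an adjusted p of 1.00. Jak1 and Tyk2 had log2 fold changes of 0.10 ± 0.10 and 0.38 ± 0.20, with adjusted p-values of 0.899 and 0.574. Stat2 and Irf9 passed without each mouse in turn. When the cells were chosen on thinned UMIs, the adjusted p of Irf9 was 0.249 at a log2 fold change of 0.91.

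The other interferon regulatory factors were not called, 0 of 6 by edgeR and 0 by DESeq2, with 3 of the 6 at an unadjusted p under 0.05 in edgeR. Irf1, a factor that both interferon types induce, read 45.9, 43.4 and 40.6 CPM in the interferon-response cells, against 33.8, 41.3 and 23.3 CPM in the lower 96% and came closest (log2 fold change 0.51 ± 0.15, adjusted p = 0.068); without mouse 1 it passed, with an adjusted p of 0.00668. Irf3, the factor that sensors activate to start interferon production, had a log2 fold change of -0.51 ± 0.17 with an adjusted p of 0.143 and was lower in 3 of 3 mice. Of 8 feedback inhibitors only Socs1, which blocks JAK kinases, was called. It read 16.1, 10.7 and 20.6 CPM in the interferon-response cells, against 5.52, 7.03 and 8.24 CPM in the lower 96% (log2 fold change 1.17 ± 0.24, adjusted p = 0.00365), and without mouse 3 its log2 fold change was 0.91 with an adjusted p of 0.468.

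Transcripts of interferon beta were found in few cells, and most of their UMIs came from mouse 3. Ifnb1, which encodes interferon beta (chr4:88522025-88522774), gave 104 UMIs in 11 of the interferon-response cells, against 40 UMIs in 28 cells of the lower 96%. With cells thinned to 2000 UMIs, 5 of 344 interferon-response cells had an Ifnb1 UMI, or 1.45%, all of them in mouse 3. In the lower 96% they were 6 of 8955 cells, or 0.0670%. By mouse the thinned interferon-response cells with a UMI were 0 of 25, 0 of 73 and 5 of 246 in mice 1, 2 and 3. Those of the lower 96% were 0 of 590, 1 of 1921 and 5 of 6444. Of those 104 UMIs, 89 came from 3 cells of mouse 3, each with 20 or more, and the other 8 cells held 15. No cell of the lower 96% held more than 4. The summed level was 2.29, 2.52 and 28.3 CPM in the interferon-response cells of mice 1, 2 and 3, against 0.374, 0.234 and 0.331 CPM in the lower 96% (log2 fold change 5.53 ± 0.61, adjusted p = 4.49e-05), and without mouse 3 the log2 fold change was 3.17 with an adjusted p of 0.146. None of 13 numbered interferon alpha genes gave a UMI in 9749 cells, which limits cells with a captured UMI to 0.0308% and sets no limit on cells that express the genes. Ifnab, a further interferon alpha gene, gave 2 UMIs in 2 cells of the lower 96%. Ifng, Ifnl2 and Ifnl3 also gave 0 UMIs. Ifnk, another type I gene, gave 9 UMIs in 9 interferon-response cells and 219 UMIs in 198 cells of the lower 96%.

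Sensors of viral RNA rose with the response, and the adaptors named here were not called. Of 21 nucleic acid sensors and adaptors tested, 7 rose and 0 fell, with a median log2 fold change of 0.60 over the list. Ddx58, which encodes the RNA sensor RIG-I (chr4:40203773-40239828), read 45.9, 65.4 and 59.7 CPM in the interferon-response cells, against 11.2, 12.2 and 6.92 CPM in the lower 96% (log2 fold change 2.72 ± 0.18, adjusted p = 5.14e-08). Its relatives Dhx58, which encodes LGP2, and Ddx60 rose with log2 fold changes of 2.12 ± 0.15 and 2.33 ± 0.15. In all 3 genes the interferon-response cells were above the lower 96% in 3 of 3 mice. Ifih1, which encodes MDA5, read 110.1, 148 and 109 CPM in the interferon-response cells, against 17.5, 37.9 and 12.1 CPM in the lower 96% (log2 fold change 2.63 ± 0.29, adjusted p = 0.0199), but without mouse 1 its adjusted p was 0.564 at 2.62. Tlr3, a receptor for double-stranded RNA, rose by 1.32 ± 0.24 on the log2 scale, and without mouse 3 it had 1.00 with an adjusted p of 0.248. Zbp1, a sensor of Z-form nucleic acids that can start cell death, read 138, 123 and 182 CPM in the interferon-response cells, against 30.9, 24.9 and 18.4 CPM in the lower 96% and missed the threshold (log2 fold change 2.71 ± 0.32, adjusted p = 0.0558). Its groups stood apart, and in fits on 2 mice, without mouse 1, 2 or 3, its adjusted p was 1.44e-07, 2.57e-04 and 1.22e-32. The adaptors Mavs and Tmem173 had adjusted p-values of 0.887 and 1.00.

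Antiviral effectors had the largest median difference among the lists with 5 or more tested genes. Of 43 tested genes that the score did not use, 32 rose and 1 fell, with a median log2 fold change of 1.88. Mx1, a GTPase that blocks influenza and related viruses, read 41.3, 71.1 and 95.7 CPM in the interferon-response cells of mice 1, 2 and 3, against 3.65, 3.45 and 2.20 CPM in the lower 96% (log2 fold change 4.82 ± 0.44, adjusted p = 0.0374). Oas3, an enzyme that senses double-stranded RNA and activates RNase L, read 64.2, 33.3 and 50.6 CPM in the interferon-response cells, against 2.99, 4.75 and 2.34 CPM in the lower 96% (log2 fold change 3.89 ± 0.36, adjusted p = 0.00115). Slfn1, of the Schlafen family, read 39.0, 23.3 and 30.01 CPM in the interferon-response cells, against 3.28, 2.83 and 1.05 CPM in the lower 96% (log2 fold change 3.94 ± 0.34, adjusted p = 3.13e-06). Phf11a and Oasl2 rose with log2 fold changes of 3.72 ± 0.24 and 3.39 ± 0.29. None of these 5 genes overlapped between the groups, against 4.91% of all genes tested without overlap upwards. The 1 lower gene was Rnase4, a ribonuclease of the angiogenin family, at 232, 173 and 262 CPM in the interferon-response cells, against 303, 232 and 337 CPM in the lower 96% (log2 fold change -0.36 ± 0.09, adjusted p = 0.0253), and without mouse 2 or 3 its adjusted p was 0.464 and 0.069. Bst2, which encodes tetherin, a protein that holds budding virus at the cell surface, read 447, 300.1 and 539 CPM in the interferon-response cells, against 186, 144 and 139 CPM in the lower 96% (log2 fold change 1.47 ± 0.20, adjusted p = 0.0223). Without mouse 1 its adjusted p was 0.631 at a log2 fold change of 1.57. Ms4a4c, a membrane protein of the MS4A family, read 388, 186 and 382 CPM in the interferon-response cells, against 58.6, 30.5 and 29.6 CPM in the lower 96% and was not called (log2 fold change 3.08 ± 0.34, adjusted p = 0.109). Fits on 2 mice, without mouse 2 or 3, gave Ms4a4c adjusted p-values of 5.06e-05 and 5.90e-70. With the top 8% taken, Mx1 had an adjusted p of 0.0981 at 4.44 and Oasl2 had 0.168 at 3.25.

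Some genes with large folds missed the threshold in the robust fit, which gives genes of unusual variance fewer degrees of freedom. Without the robust option, an alternative added after the values were seen, 295 genes were higher and 25 lower. Ms4a4c then had an adjusted p of 5.03e-08, Zbp1 2.37e-07 and Cxcl10 0.00812, all with unchanged log2 fold changes to 2 decimals.

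Gene families that act beside these effectors rose nearly whole. All 7 genes of ISG15 conjugation and ubiquitin ligases rose, as did 7 of 8 ADP-ribosyltransferases and partners, 8 of 10 genes of the PYHIN family of DNA-binding proteins and 11 of 13 interferon-inducible GTPases. Their median log2 fold changes were 1.07, 1.72, 1.76 and 1.78. Herc6, the mouse ligase for ISG15, read 59.7, 72.3 and 71.4 CPM in the interferon-response cells, against 10.2, 14.7 and 9.25 CPM in the lower 96% (log2 fold change 2.68 ± 0.15, adjusted p = 1.15e-11), and Ube2l6, its conjugating enzyme, rose by 2.12 ± 0.21. Parp14, a mono-ADP-ribosyltransferase, read 163, 247 and 177 CPM in the interferon-response cells, against 51.6, 64.2 and 32.3 CPM in the lower 96% (log2 fold change 2.11 ± 0.14, adjusted p = 1.99e-07). Ifi204 of the PYHIN family read 186, 143 and 129 CPM in the interferon-response cells, against 65.1, 58.0 and 34.3 CPM in the lower 96% (log2 fold change 1.62 ± 0.12, adjusted p = 2.01e-09). Among the GTPases, which act on the vacuoles of intracellular pathogens, Irgm1 read 50.5, 24.5 and 69.2 CPM in the interferon-response cells, against 7.67, 5.32 and 9.76 CPM in the lower 96% (log2 fold change 2.67 ± 0.17, adjusted p = 5.62e-11). Ifi47 read 89.5, 52.8 and 86.0 CPM in the interferon-response cells, against 10.6, 8.80 and 6.88 CPM in the lower 96% (log2 fold change 3.22 ± 0.20, adjusted p = 7.75e-07). Each of these genes was higher in 3 of 3 mice with no overlap. Without mouse 2, 4 of 7 ISG15 conjugation genes were called, where 1.74% of all genes tested were called higher. With the top 8% taken Ube2l6 had an adjusted p of 0.0964 at 1.77. Members of the PYHIN, Schlafen, Oas, Gbp and H2 families are close copies that lie side by side, and the split of reads among them is uncertain.

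**Figure D3:**
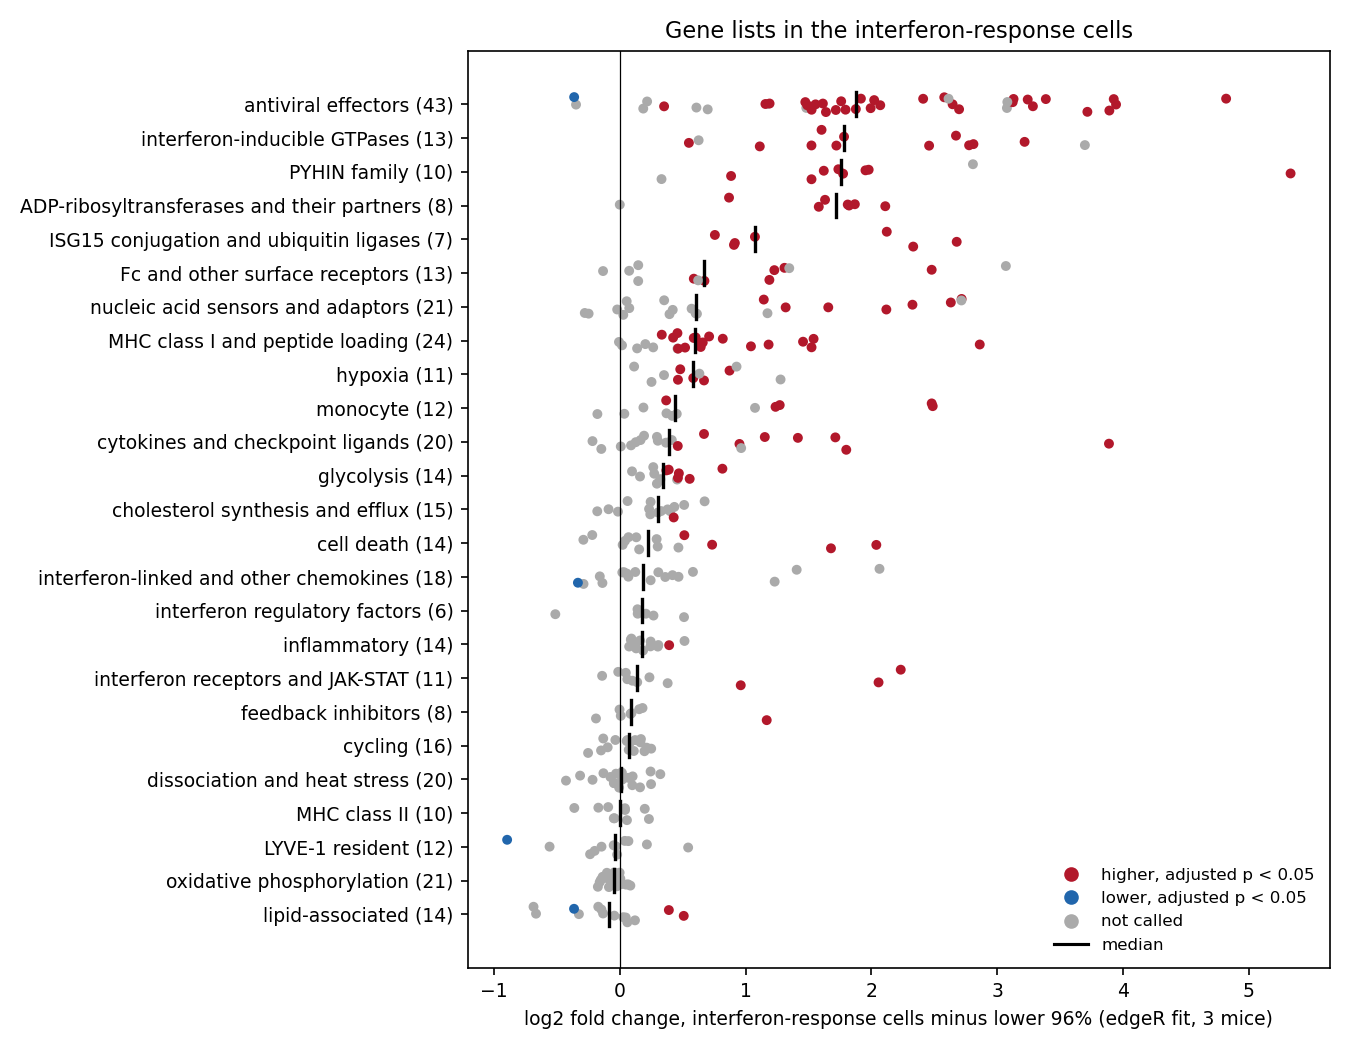
Log2 fold change of the tested genes of each list, interferon-response cells minus the lower 96%, from the edgeR fit over 3 mice. Red points were called higher, blue points lower and grey points neither, black bars are list medians, and the number of genes is in parentheses. Function and state lists with 5 or more tested genes are shown. Antiviral effectors have the highest median of these at 1.88, and MHC class II and oxidative phosphorylation lie near 0.

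Genes of class I antigen presentation rose, and those of class II were not called. Of 24 genes of MHC class I and peptide loading 18 rose, with a median log2 fold change of 0.60, while 0 of 10 MHC class II genes did by edgeR or DESeq2, with 2 at an unadjusted p under 0.05 in edgeR and a median of -0.000665. Tap1, which carries peptides into the endoplasmic reticulum, read 75.7, 84.3 and 96.9 CPM in the interferon-response cells of mice 1, 2 and 3, against 38.0, 32.2 and 28.0 CPM in the lower 96% (log2 fold change 1.52 ± 0.14, adjusted p = 1.02e-07). H2-T23, a nonclassical class I molecule, read 245, 213 and 227 CPM in the interferon-response cells, against 107, 114 and 88.7 CPM in the lower 96% (log2 fold change 1.18 ± 0.10, adjusted p = 9.21e-09). Psmb9, a subunit of the immunoproteasome, rose by 1.04 ± 0.13 on the log2 scale. These 3 genes passed without each mouse in turn. The classical heavy chain H2-K1 was abundant and rose little, at 1865, 1587 and 2117 CPM in the interferon-response cells, against 1520.1, 1331 and 1353 CPM in the lower 96% (log2 fold change 0.42 ± 0.09, adjusted p = 0.00615). Without mouse 2 or 3 H2-K1 had adjusted p-values of 0.117 and 0.385, at log2 fold changes of 0.47 and 0.27. Without mouse 1, 2 or 3 the list had 19, 9 and 6 higher genes, where 3.77, 1.74 and 2.17% of all genes tested were higher. H2-Aa, a class II chain, read 6236, 5172 and 4131 CPM in the interferon-response cells, against 5019, 4636 and 3968 CPM in the lower 96% (log2 fold change 0.20 ± 0.08, adjusted p = 0.333), and Ciita, the class II transactivator, had a log2 fold change of -0.09 ± 0.16 with an adjusted p of 0.965.

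Chemokines differed from mouse to mouse. Of 18 tested, 0 rose by edgeR and 1 fell, with 5 at an unadjusted p under 0.05. DESeq2's Wald test called 3 higher, and without mouse 1, 2 or 3 edgeR called 4, 1 and 8 higher. In those edgeR fits 3.77, 1.74 and 2.17% of all genes tested were higher. Cxcl10, which draws CXCR3-bearing T cells, read 278, 289 and 1093 CPM in the interferon-response cells of mice 1, 2 and 3, against 190.2, 105 and 78.6 CPM in the lower 96% (log2 fold change 2.06 ± 1.03, adjusted p = 0.783). Its level in mouse 3 stood far above the other 5 values. In the fit on 2 mice without mouse 3 the smaller log2 fold change of 1.06 passed with an adjusted p of 1.20e-12. Ccl5 read 68.8, 74.9 and 135 CPM in the interferon-response cells, against 32.3, 49.9 and 31.5 CPM in the lower 96% (log2 fold change 1.41 ± 0.46, adjusted p = 0.598), and Ccl12 read 512, 437 and 711 CPM in the interferon-response cells, against 322, 222 and 193 CPM in the lower 96% (log2 fold change 1.23 ± 0.36, adjusted p = 0.522). Ccl2, which draws monocytes, had 1643, 951 and 897 CPM in the interferon-response cells, against 784, 634 and 868 CPM in the lower 96% (log2 fold change 0.58 ± 0.18, adjusted p = 0.32). All 4 were higher in 3 of 3 mice without overlap between the groups, which held for 4.91% of all genes tested. Without mouse 3 the adjusted p was 0.00565 for Ccl5, 3.52e-09 for Ccl12 and 2.08e-09 for Ccl2. Pf4 was the 1 lower gene (log2 fold change -0.33 ± 0.09, adjusted p = 0.0467); its log2 fold change was 0.04 with the top 8% taken, and without mouse 2 or 3 its adjusted p was 0.287 and 0.375.

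**Figure D4:**
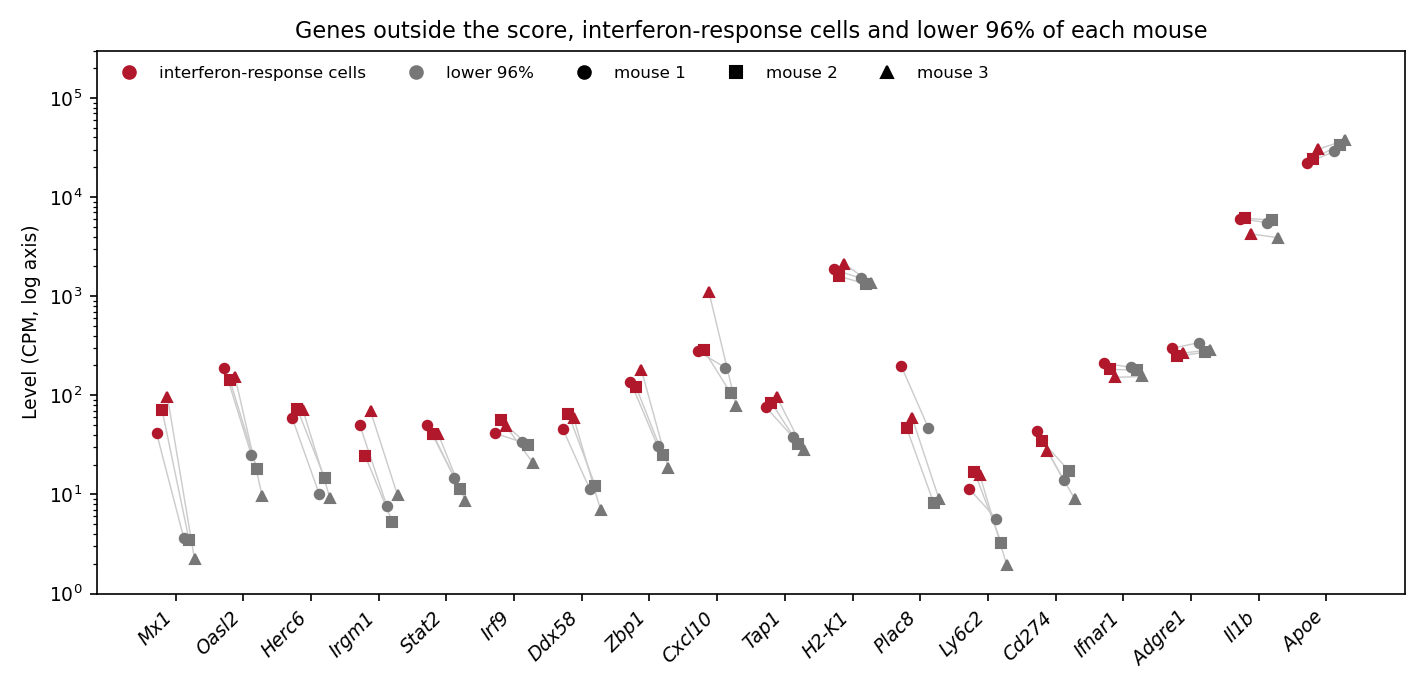
Level of 18 genes outside the score in CPM (log axis), with red symbols for interferon-response cells, grey symbols for the lower 96% and lines joining the 2 values of a mouse. Mx1 and Stat2 are higher in every mouse, Cxcl10 reaches 1093 in mouse 3 alone, and Ifnar1, Adgre1 and Il1b lie level.

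Of 20 cytokines and checkpoint ligands 8 rose. Tnfsf10, the death ligand TRAIL, was nearly absent from the lower 96% and read 4.59, 10.1 and 8.86 CPM in the interferon-response cells of mice 1, 2 and 3, against 0.562, 0.675 and 0.563 CPM in the lower 96% (log2 fold change 3.89 ± 0.42, adjusted p = 2.83e-07). Cd274, which encodes PD-L1, read 43.6, 34.6 and 27.1 CPM in the interferon-response cells, against 13.9, 17.2 and 9.05 CPM in the lower 96% (log2 fold change 1.42 ± 0.17, adjusted p = 1.80e-06). Il15, a cytokine for natural killer and memory T cells, read 25.2, 7.55 and 9.72 CPM in the interferon-response cells, against 4.59, 3.84 and 2.85 CPM in the lower 96% (log2 fold change 1.71 ± 0.32, adjusted p = 8.28e-04). The 3 genes did not overlap between the groups and passed without each mouse in turn, although Cd274 had an adjusted p of 0.174 when the cells were chosen on thinned UMIs. The level of Tnfsf10 in the interferon-response cells of mouse 1 rested on 2 UMIs. Cd40, a costimulatory receptor, rose by 1.15 ± 0.15. Il18bp, which neutralises interleukin 18, rose by 0.95 ± 0.18, and without mouse 2 or 3 its adjusted p was 0.107 and 0.462. Without mouse 1, 2 or 3 the list had 12, 5 and 5 higher genes, where 3.77, 1.74 and 2.17% of all genes tested were higher. Of 14 cell death genes 4 rose, led by Daxx at 2.04 ± 0.16 and the necroptosis effector Mlkl at 1.68 ± 0.31 on the log2 scale. The others were the inflammatory caspases Casp4 and Casp1, at 0.73 ± 0.13 and 0.51 ± 0.13, and without mouse 2 or 3 Casp1 had adjusted p-values of 0.522 and 0.252.

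At the surface, 6 of 13 Fc and other receptors rose. Fcgr1, the high-affinity IgG receptor CD64, read 496, 383 and 525 CPM in the interferon-response cells of mice 1, 2 and 3, against 264, 172 and 202 CPM in the lower 96% (log2 fold change 1.19 ± 0.10, adjusted p = 1.06e-08). Ly6e, a GPI-anchored protein, read 904, 458 and 733 CPM in the interferon-response cells, against 374, 252 and 265 CPM in the lower 96% (log2 fold change 1.23 ± 0.11, adjusted p = 3.75e-08), and Siglec1, the sialic acid receptor CD169, rose by 1.31 ± 0.19. All 3 stood apart in every mouse, and Siglec1 had an adjusted p of 0.285 with cells thinned to 2000 UMIs. Of 12 monocyte genes 5 rose, with a median of 0.43 over the list. Plac8 read 197, 46.6 and 59.4 CPM in the interferon-response cells, against 47.1, 8.20 and 8.90 CPM in the lower 96% (log2 fold change 2.49 ± 0.14, adjusted p = 5.62e-11). Ly6c2, the marker of classical monocytes, read 11.5, 17.0 and 15.7 CPM in the interferon-response cells, against 5.71, 3.24 and 1.93 CPM in the lower 96% (log2 fold change 2.48 ± 0.32, adjusted p = 1.34e-05). Both passed without each mouse in turn, but with no replicate block 0 of the 12 monocyte genes were called, these included. Both are also known as interferon-inducible genes in mouse myeloid cells. Ccr2, the receptor that brings monocytes into tissue, read 279.9, 232 and 88.3 CPM in the interferon-response cells, against 224, 157 and 115 CPM in the lower 96% (log2 fold change 0.19 ± 0.19, adjusted p = 0.909), and without mouse 3 it passed at 0.46 with an adjusted p of 0.0178. The other 3 called genes were F10, S100a4 and Hp, at 1.24 ± 0.15, 0.37 ± 0.10 and 1.27 ± 0.35. Without mouse 2 the list had 3 higher genes, where 1.74% of all genes tested were called higher. S100a4 then had an adjusted p of 0.865 and Hp 0.111, and without mouse 3 Hp had 0.837.

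Genes of other macrophage states had few calls with all 3 mice. None of 16 cycling genes was called by edgeR, with 0 at an unadjusted p under 0.05, and Mki67 had a log2 fold change of -0.13 ± 0.17 with an adjusted p of 0.941. DESeq2 also called 0 of the 16. Of 14 inflammatory genes only Clec4e rose, by 0.39 ± 0.09, and without mouse 2 its adjusted p was 0.626. Without mouse 1, 2 or 3 the list had 5, 0 and 3 higher genes, where 3.77, 1.74 and 2.17% of all genes tested were higher. The median of the list was 0.17 with all mice. Il1b, which encodes interleukin 1 beta, read 6075, 6125 and 4259 CPM in the interferon-response cells, against 5528, 5871 and 3907 CPM in the lower 96% (log2 fold change 0.13 ± 0.08, adjusted p = 0.707). Neither the 20 dissociation and heat stress genes nor the 21 oxidative phosphorylation genes had a call by edgeR or DESeq2, with 1 and 0 genes at an unadjusted p under 0.05 in edgeR and medians of 0.01 and -0.04. Of 14 lipid-associated genes Lgals3 and Plin2 rose, by 0.51 ± 0.09 and 0.39 ± 0.10, and 1 fell. Without mouse 2 their adjusted p-values were 0.0818 and 0.545. The lower gene was Apoe, the lipid carrier and one of the most abundant transcripts, at 22190.5, 24373 and 30408 CPM in the interferon-response cells, against 28975, 33696 and 37609 CPM in the lower 96% (log2 fold change -0.36 ± 0.08, adjusted p = 0.00365), and without mouse 2 its adjusted p was 0.318. Trem2, a lipid receptor, was lower in 3 of 3 mice at 610.3, 425 and 723 CPM in the interferon-response cells, against 695, 619 and 893 CPM in the lower 96% and missed the threshold (log2 fold change -0.32 ± 0.09, adjusted p = 0.0526); without mouse 1 it passed, with an adjusted p of 4.50e-06. Lyve1, the hyaluronan receptor of resident macrophages, was the 1 called gene of its 12-gene list, at 0, 7.55 and 15.7 CPM in the interferon-response cells, against 4.96, 17.6 and 26.9 CPM in the lower 96% (log2 fold change -0.90 ± 0.22, adjusted p = 0.0155). Without mouse 2 or 3 its adjusted p was 0.453 and 0.113.

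Glycolysis and hypoxia genes rose by small amounts, with fewer calls without mouse 2 or 3, as over all genes tested. Of 14 glycolysis genes 6 rose and of 11 hypoxia genes 5 rose, with medians of 0.35 and 0.58. Without mouse 1, 2 or 3 the counts were 10, 2 and 2 for glycolysis and 6, 3 and 2 for hypoxia, at medians of 0.43, 0.35 and 0.25 for glycolysis and 0.44, 0.48 and 0.52 for hypoxia. The share of all genes tested that was called higher was 3.77, 1.74 and 2.17% in these fits, against 2.93% with all mice. Pfkp, a phosphofructokinase, read 71.1, 100.03 and 63.2 CPM in the interferon-response cells, against 47.9, 66.2 and 30.5 CPM in the lower 96% (log2 fold change 0.82 ± 0.13, adjusted p = 1.29e-04), and Tpi1, triosephosphate isomerase, rose by 0.56 ± 0.09. Bnip3, a mitophagy receptor that hypoxia induces, read 91.8, 34.6 and 64.6 CPM in the interferon-response cells, against 60.5, 17.7 and 34.7 CPM in the lower 96% (log2 fold change 0.87 ± 0.13, adjusted p = 8.02e-05). These 3 genes passed without each mouse in turn. Arg1, the arginase of hypoxic tumour macrophages, read 82.6, 16.4 and 28.9 CPM in the interferon-response cells, against 72.6, 6.80 and 18.0 CPM in the lower 96% (log2 fold change 0.67 ± 0.17, adjusted p = 0.0315), and with the top 2% taken it was -0.18. Without mouse 2 or 3 Arg1 had adjusted p-values of 0.58 and 0.235.

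Outside the lists stood 181 higher and 36 lower genes. Among the most different higher genes at 50 CPM or more was Samd9l, an antiviral translation inhibitor, at 59.7, 76.8 and 46.9 CPM in the interferon-response cells, against 8.89, 17.9 and 6.48 CPM in the lower 96% (log2 fold change 2.56 ± 0.16, adjusted p = 1.48e-10). Sp110 and Sp140, nuclear body proteins encoded side by side on chromosome 1, rose by 1.34 ± 0.12 and 1.29 ± 0.12. Pnp, a purine nucleoside phosphorylase, read 243, 231 and 331 CPM in the interferon-response cells, against 122, 111 and 126 CPM in the lower 96% (log2 fold change 1.20 ± 0.10, adjusted p = 7.06e-09). These 4 genes and Trafd1, Ogfr, Fam46a and March5 passed without each mouse in turn. Among the lower genes Gpr34, a lysophosphatidylserine receptor of microglia and macrophages, read 45.9, 64.2 and 65.4 CPM in the interferon-response cells, against 95.6, 104 and 103 CPM in the lower 96% (log2 fold change -0.70 ± 0.12, adjusted p = 4.22e-04), and it too passed without each mouse. Gdf15, a stress-induced cytokine, had a log2 fold change of -0.64 ± 0.14, and without mouse 2 or 3 its adjusted p was 0.0724 and 0.0808.

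Transcripts of milk-producing epithelium were lower in the interferon-response cells when all UMIs were summed, but not when cells were thinned to 2000 UMIs. The 12 epithelial markers summed to 39.0, 131 and 77.2 CPM in the interferon-response cells, against 91.4, 232 and 165 CPM in the lower 96%, and 2 of 7 tested fell. Wfdc18 read 18.4, 30.2 and 18.9 CPM in the interferon-response cells, against 44.0, 70.6 and 52.9 CPM in the lower 96% (log2 fold change -1.32 ± 0.15, adjusted p = 9.49e-07), and Csn3, kappa casein, read 9.18, 62.9 and 33.4 CPM in the interferon-response cells, against 31.8, 126 and 66.8 CPM in the lower 96% (log2 fold change -1.002 ± 0.14, adjusted p = 1.78e-05). The casein genes Csn1s1 and Csn2 and the lactalbumin gene Lalba, chosen after their values were seen, were also lower, with log2 fold changes of -2.93 ± 0.58, -2.21 ± 0.58 and -0.90 ± 0.21 and adjusted p-values of 0.00211, 0.039 and 0.0119. Without mouse 2 these were 0.838, 1.00 and 0.107, at log2 fold changes of -1.72, -0.92 and -1.39, and without mouse 3 that of Lalba was 0.38 at -0.64. Wfdc18 and Csn3 passed without each mouse in turn. With cells thinned to 2000 UMIs, Wfdc18 had a log2 fold change of -0.48 and an adjusted p of 0.998, and the signs of Csn3 and Lalba turned, to 1.24 and 2.24. When the cells were also chosen on thinned UMIs, Wfdc18 had a log2 fold change of -0.36 and an adjusted p of 0.97, and Csn3 and Lalba had 1.67 and 2.18. With the top 8% taken Csn3 had -0.80 and an adjusted p of 0.83. The part of free RNA or engulfed cells in these levels was not tested. Of the markers of other lineages, Kdr of endothelium was called higher, at 2.29, 3.15 and 9.14 CPM in the interferon-response cells, against 1.40, 1.45 and 1.97 CPM in the lower 96% (log2 fold change 1.85 ± 0.41, adjusted p = 0.00674), and without mouse 3 its adjusted p was 0.905 at 1.03. Kdr held 1, 5 and 32 UMIs in the interferon-response cells of mice 1, 2 and 3. The 6 endothelial markers summed to 16.1, 8.18 and 15.7 CPM in the interferon-response cells, higher in 3 of 3 mice. In the lower 96% they summed to 7.39, 6.02 and 6.36 CPM. Cdh5 was also higher in 3 of 3 mice, but on fewer than 3 UMIs in the interferon-response cells of each. Pecam1 was lower in mouse 2, at 2.52 against 2.91 CPM, and Egfl7 in mouse 1, at 0 against 0.842 CPM. Cldn5 and Emcn were at 0 in the interferon-response cells of all 3 mice and at or near 0 in the lower 96%. The part of endothelial RNA in the level of Kdr was not tested.

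Markers of other immune cells were low. T and NK cell markers summed to 20.6, 12.6 and 11.1 CPM in the interferon-response cells, against 15.3, 16.9 and 12.3 CPM in the lower 96%, with Cd3d, Cd3e, Cd3g and Trac at 0 in the interferon-response cells of all 3 mice. Neutrophil markers summed to 25.2, 31.5 and 31.7 CPM in the interferon-response cells, against 32.8, 28.8 and 32.6 CPM in the lower 96%, with Ly6g and S100a9 at 0 in those cells. B cell markers summed to 124, 151 and 103 CPM in the interferon-response cells, against 138, 158 and 127 CPM in the lower 96%, of which Ighm made up most, and Cd79a was at 0 in the interferon-response cells. Plasmacytoid dendritic cells are the body's main makers of interferon alpha. Their markers summed to 161, 143 and 156 CPM in the interferon-response cells, against 136, 127 and 132 CPM in the lower 96%, nearly all from Tcf4, with Klk1, Ly6d and Pacsin1 at 0 in the interferon-response cells. Classical dendritic cell markers summed to 179, 18.2 and 18.3 CPM in the interferon-response cells, against 37.5, 25.9 and 16.9 CPM in the lower 96%. The value of mouse 1 came from Cd209a, whose 77 UMIs all lay in 1 cell, and Flt3 and Clec9a were at 0. Fibroblast markers summed to 32.1, 12.0 and 4.001 CPM in the interferon-response cells, against 8.33, 4.23 and 5.62 CPM in the lower 96%. Erythroid markers summed to 2.29, 1.89 and 5.14 CPM in the interferon-response cells, against 4.68, 70.6 and 3.77 CPM in the lower 96%. Of the 2 erythroid genes tested 0 were called by edgeR. Leaving out every cell with 3 or more UMIs of any of these lists kept 171 of the 358 interferon-response cells, since abundant genes such as Tcf4 and Ighm count towards it, and 176 genes were then higher and 37 lower.

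Along the score the levels of genes outside it were graded. In cells ordered from the lower 50% through 50 to 25%, 25 to 10% and 10 to 4% to the interferon-response cells, Stat2 read 9.98, 15.1, 19.3, 31.7 and 50.5 CPM in mouse 1. In mouse 2 Stat2 read 6.37, 10.6, 14.7, 29.2 and 40.9 CPM, and in mouse 3 it read 6.83, 7.68, 10.3, 17.8 and 40.6 CPM. The order was the same in the 3 mice, with the widest step at the top in mice 1 and 3. Zbp1 stood in the same ranges at 18.7, 33.0, 36.9, 84.6 and 138 CPM in mouse 1 and 10.8, 13.3, 26.5, 64.1 and 182 CPM in mouse 3. H2-K1 had more even steps, at 1231, 1307, 1515, 1836 and 2117 CPM in mouse 3, and in mouse 1 it was level over the last ranges. Cxcl10 followed no order in mouse 1, at 223, 113, 301, 56.8 and 278 CPM, while in mouse 3 it was at 65.7, 78.8, 81.3, 144 and 1093 CPM with nearly all of the difference in the last step. Il1b showed no order with the score at the upper end in mouse 2, at 5451, 6189, 5875, 6626 and 6125 CPM. These series are a description, since all ranges come from the same libraries and share their depth.

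**Figure D5:**
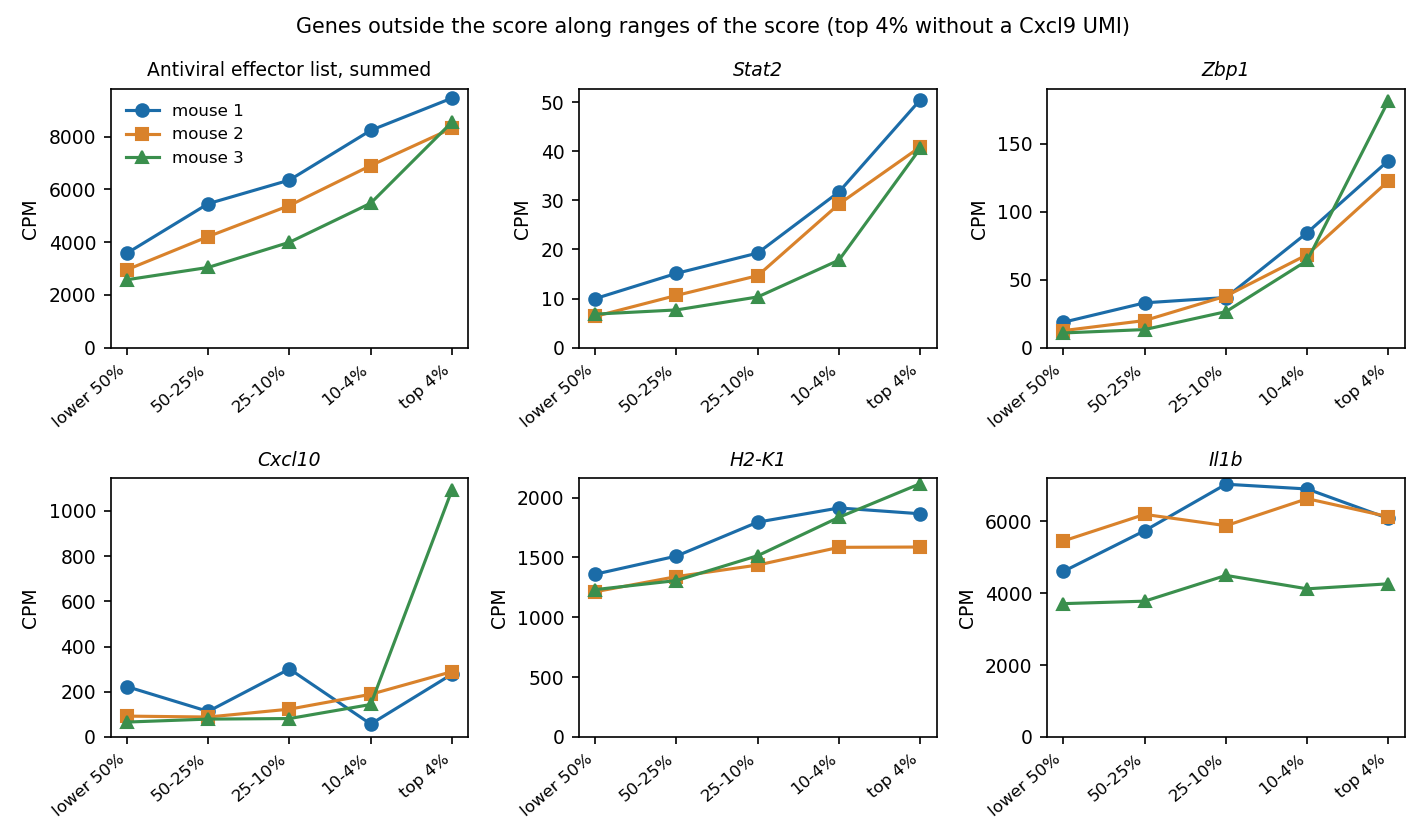
Level in CPM along ranges of the interferon score, low to high, for the summed antiviral effector list and 5 genes, 1 line per mouse. Stat2 and Zbp1 are highest in the top 4% in every mouse, whereas Cxcl10 reaches 1093 in mouse 3 and 278 and 289 in mice 1 and 2.

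High scorers with a Cxcl9 UMI were set beside the interferon-response cells, and no gene was called different between them. The top 4% held a Cxcl9 UMI in 7.41, 7.14 and 8.60% of cells, against 0.943, 4.35 and 1.66% of the lower 96%. After thinning of every cell to 2000 UMIs they came to 0, 3.80 and 3.72% of the top 4%, against 0.339, 1.61 and 0.466% of the lower 96%, with 15 and 404 shallower cells left out. The median depth was 15137 and 10547 UMIs in the interferon-response cells of mice 2 and 3, against 31960.5 and 13376 UMIs in the Cxcl9-positive cells, and the part of depth in the split was not tested. Mouse 1 had 2 such cells and stayed out of the fit. Over mice 2 and 3, edgeR called 0 of 7155 genes, a share of 0%, with 297 at an unadjusted p under 0.05, and DESeq2's Wald test also called 0. Stat2 read 40.9 and 40.6 CPM in the interferon-response cells of mice 2 and 3, against 59.8 and 58.3 CPM in the Cxcl9-positive cells (log2 fold change -0.50 ± 0.31, adjusted p = 0.968). Cxcl10 read 289 and 1093 CPM in the interferon-response cells of mice 2 and 3, against 1208 and 644 CPM in the Cxcl9-positive cells (log2 fold change -0.58 ± 1.09, adjusted p = 1.00), higher in the interferon-response cells of mouse 3 and lower in those of mouse 2. Gbp4, a GTPase that interferon gamma induces strongly, read 5.03 and 9.72 CPM in the interferon-response cells of mice 2 and 3, against 77.7 and 15.2 CPM in the Cxcl9-positive cells (log2 fold change -2.07 ± 0.71, adjusted p = 0.968). Ciita had 47.2 and 15.4 CPM in the interferon-response cells of mice 2 and 3, against 53.8 and 27.9 CPM in the Cxcl9-positive cells (log2 fold change -0.50 ± 0.39, adjusted p = 0.968). The Cxcl9-positive sums held 6 and 24 cells, and the unadjusted p of Gbp4 was 0.0148.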

How the data were processed

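Single cells of 3 MMTV-PyMT mammary tumours, 1 from each of 3 mice, were measured by droplet RNA sequencing. Per the submitters' processing notes and the labels, the authors' deposited matrices hold raw counts of UMIs for each gene and barcode, made with Cell Ranger 3.0.2 on build mm10. Which annotation version was used is not given in the sources used here. All matrices held 31053 features, and 35 symbols had more than 1 ID and were kept apart in the fits. Gene positions came from a GENCODE annotation of the same build and promoter windows from RefSeq (GRCm38.p6).

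Barcodes were kept at 500 or more genes and 15% or fewer mitochondrial UMIs. The interferon-response cells and the gene lists were chosen with earlier results of these data known. UMI counts were summed per mouse and part and tested by the 2-sided quasi-likelihood F test of edgeR 4.0.16 (R 4.3.3) with robust estimation, TMM factors and the filterByExpr filter. Terms were part and mouse. Both sums of a mouse come from its library, which pairs them. Adjustment followed Benjamini and Hochberg over all genes tested. The 9 genes of the score, Cxcl9 and Ifit3b, a near copy of Ifit3, were left out of the test. Each SE equals the absolute log2 fold change over the root of F. CPM divides a gene's UMIs by all UMIs of the same sum. A mouse with under 5 cells in a part was left out.

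Genes named whatever their result were fixed as a list of pathway and sorting genes. Others were the 6 largest higher and 3 largest lower of each list past the threshold with 1 sign in 3 of 3 mice and 30 UMIs or more, and the 8 largest each way outside the lists at 50 CPM or more. Genes named to illustrate a list of which they were not among these are Mavs, Tmem173, Csn1s1, Csn2, Csn3, Lalba, Wfdc18, Kdr, Epcam and Krt18. Scrublet in scanpy 1.11.5 (Python 3.11.15) called 2, 9 and 0 doublets, too few for a working caller, so cells of highest doublet score were left out at 0.8% per 1000 barcodes as an alternative. DESeq2 1.42.0 was an alternative test. The fitting code was first tested on simulated data. Limits for a count of 0 take 3 counts and cover counting error only.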

Additional observations from a re-analysis of the deposited data

Results flagged for a closer look

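Barcodes that the filters left out also held high scorers. Of the 411 left-out barcodes of mouse 1, 13 scored at or above that library's limit for the top 4%, a share of 3.16% (exact 95% interval 1.69 to 5.35%). In mouse 2 they were 7 of 362, or 1.93% (0.781 to 3.94%). In mouse 3 they were 6 of 451, or 1.33% (0.490 to 2.87%). Of these, 3, 1 and 3 barcodes of mice 1, 2 and 3 passed on 3 or fewer UMIs of the score genes, and the left-out barcodes had a median of 2925, 1662.5 and 1077 UMIs. They are listed because they lie outside the main comparison and above the limit that a count of 0 allows; some left-out barcodes entered the alternative with 25% mitochondrial UMIs. Each share lies below the 4% that the choice fixed among kept cells.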

How the results depend on the processing

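Outside the mouse-by-mouse results, the direction of the 354 calls was kept wherever they were tested in all alternatives except the thinned cells (289 of 292), the choice on thinned UMIs (286 of 293), the top 2% and the top 8% (349 of 351 each). Counts of higher genes lay between 284 and 357 under size factors, other cell filters, other shares taken, doublet removal, no filter on low counts and other uses of the Cxcl9 condition. They were 236 with DESeq2's Wald test, 141 with thinned cells, 124 with the choice on thinned UMIs, 176 without cells with markers of other types, 85 with no replicate block and 186 to 462 with a mouse left out. Lower genes were 9 with the Wald test, 5 with thinned cells, 2 with the choice on thinned UMIs, 79 with no filter on low counts, 25 without robust estimation, 0 with no replicate block and 6 to 116 with a mouse left out. The fits without the block leave differences between mice in the error. The thinned ones hold fewer genes and UMIs and leave out the shallower cells. The cause of the changed counts was not tested for any setting. Signs turned for Lyve1 (0.15 with the choice on thinned UMIs, 0.36 in the top 8%), Pf4 (0.0072 and 0.040 in the same settings), Csn3 and Lalba (1.24 and 2.24 with thinned cells, 1.67 and 2.18 with the choice on thinned UMIs), and in the top 2% for Arg1 (-0.18) and Hp (-0.43).

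Against high scorers with Cxcl9, higher and lower genes numbered 5 and 4 with size factors, 4 and 3 at 25% mitochondrial UMIs, 1 and 3 with thinned cells and 20 and 9 with no filter on low counts. At 8% mitochondrial UMIs 1 gene was higher, and without likely doublets 2. Leaving out a mouse or cells with markers of other types left 1 mouse and gave no value. Every share of cells with a Cxcl9 or Ifnb1 UMI was lower in thinned cells. With 25 interferon-response cells, mouse 1 limits low genes most.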
